A study of Rattus rattus with 24 samples.

Results

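The early response of rat oligodendrocyte precursor cells (OPCs) to quetiapine was measured after 48 hours as the difference between 3 cultures given quetiapine and 3 control cultures. These 6 arrays were taken by their labels from the 24 arrays of the study, and all 31042 probe sets that are not array controls were compared, paired by replicate number. OPCs were selected by the surface antigen A2B5 from the cortices of rat pups in the first postnatal week, expanded in PDGF and then moved to a differentiation medium that contains the supplement B27. The quetiapine cultures received 1 μM quetiapine for 48 hours, and the control cultures received vehicle (DMSO) for the same time. Beside them, the same 3 biological replicates supplied cultures with 45 nM T3, the active thyroid hormone, with the combination of T3 and quetiapine, and with each of the 4 conditions for 96 hours. All groups shared the vehicle and B27, which brings a small amount of T3, so that no culture, control included, was free of thyroid hormone. The cultures were A2B5 selected and not pure, and a bulk array cannot tell fewer cells of a type from less RNA per cell. The sources used here do not say how many animals were pooled in a replicate. The values are log2 expression, on which a difference of 1 is a 2-fold change.

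OPCs divide until they leave the cell cycle and mature into oligodendrocytes, which wrap axons in myelin. Myelin is unusually rich in cholesterol, which does not enter the brain from blood and is made in place through the mevalonate and sterol pathways. The genes of these enzymes are switched on together by SREBP2 when sterols in the endoplasmic reticulum run low, while the receptor LXR, which is activated by oxysterols, switches on the genes of cholesterol export. Quetiapine is an antipsychotic that blocks receptors for dopamine, serotonin, histamine and adrenaline.

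Transcripts of sterol synthesis enzymes rose after 48 hours of quetiapine and some of cholesterol efflux and storage fell, while most myelin genes did not pass the test. A probe set was called when its adjusted p, from limma with the replicate number as a block and the method of Benjamini and Hochberg, was under 0.05 and its fold change over 1.5. There were 144 probe sets called higher with quetiapine, 0.464% of those tested, and 158 called lower, 0.509%. They came to 302, or 0.973%, and held 80 distinct named genes that rose and 113 that fell. Of the 80 genes that rose, 28 were enzymes or regulators on the lists of sterol and fatty acid synthesis, and none of the 113 that fell was. These 4 lists held 7, 12, 10 and 17 measured genes of the 14217 named, and they were chosen with earlier results of these data known. The changes were modest in size, since 26 of the probe sets called higher and 16 of those called lower moved over 2-fold and none over 4-fold. All 302 moved the same way in all 3 replicates, and in 178 the values of both groups did not overlap. The median change of all 14217 named genes was 0.00 (−0.00420) on the log2 scale.

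The counts rested on the pairing and on the number of replicates. Without the replicate as a block, 24 probe sets were called higher, 0.0773%, and 9 lower, 0.029%. Leaving out single quetiapine or control arrays gave 75 to 240 higher and 49 to 353 lower. The lowest counts came without quetiapine replicate 2 and the highest, 240 and 353, without control replicate 1, while control replicate 2 gave 122 and 71, control replicate 3 gave 78 and 70, and quetiapine replicate 3 gave 79 and 63. Without all 4 arrays of replicate 2, 7 probe sets were called, of which 6 were lower (*St6gal1*, *Jag2*, *Cerk*, *Sntg2*, *Ctnnal1* and 1 with no symbol) and 1 with no symbol was higher. All 302 kept their direction in each of these fits.

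Genes of the first steps of sterol synthesis, from acetyl-CoA to farnesyl diphosphate, rose with quetiapine. Of 7 measured enzymes of the mevalonate and isoprenoid list, 6 passed the test upward and none downward, with a median of 0.79, against 1.86% of all named genes that passed upward and 2.76% that passed downward. Without the replicate block 3 of the 7 passed. *Mvd*, which makes isopentenyl diphosphate, was at 10.09, 9.69 and 9.47 in the 3 control cultures and at 10.82, 10.79 and 10.94 with quetiapine. The 3 quetiapine arrays lay close together and above all control arrays. The rise was 1.10 ± 0.16 (SE, n = 3), which is 2.15-fold (adjusted p = 0.00775). *Idi1*, the isomerase of the next step, went from 12.45, 12.11 and 12.03 to 12.97, 13.08 and 13.16, a rise of 0.87 ± 0.11 (adjusted p = 0.00351), and its other probe set rose by 1.22. The kinases *Mvk* and *Pmvk* rose by 0.86 and 0.79, *Fdps*, which makes farnesyl diphosphate, by 0.73, and *Acat2*, the thiolase at the start of the pathway, by 0.68. One of the 3 probe sets of *Mvk* was at −0.13. *Ggps1*, which branches off to geranylgeranyl diphosphate and not to sterols, was the member that did not pass, at 0.17 (adjusted p = 0.218). *Mvk*, *Fdps* and *Idi1* passed without each of the 6 arrays in turn. *Mvd* missed the limit without quetiapine replicate 3 (adjusted p = 0.0509), *Acat2* without quetiapine replicates 2 or 3 (up to 0.0604), and *Pmvk* without replicates 2 or 3 of either group (up to 0.0982).

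All 12 measured enzymes from squalene to cholesterol rose, with a median of 0.88, and in each of the 12 the values of both groups did not overlap. Over all named genes, 6.58% were higher with quetiapine and 5.83% lower with no overlap. *Hsd17b7*, the 3-ketosteroid reductase of the pathway, was at 9.91, 9.11 and 9.10 in control and at 10.84, 10.66 and 10.72 with quetiapine. It rose by 1.37 ± 0.17, or 2.58-fold (adjusted p = 0.00334), more than any other named sterol enzyme measured. *Fdft1*, the squalene synthase that commits farnesyl diphosphate to sterols, went from 10.68, 10.49 and 10.37 to 11.32, 11.48 and 11.49, a rise of 0.92 ± 0.11 (adjusted p = 0.00276). *Sqle*, the squalene epoxidase and a rate-limiting step, went from 11.67, 11.42 and 11.45 to 12.33, 12.21 and 12.33, a rise of 0.78 ± 0.08 (adjusted p = 0.00201). *Cyp51*, the lanosterol demethylase, went from 11.96, 11.87 and 12.06 to 12.56, 12.82 and 13.09, a rise of 0.86 ± 0.09 (adjusted p = 0.00198). The later enzymes moved within a narrow range. *Nsdhl* and *Tm7sf2* rose by 0.96 and 0.94, *Dhcr7*, which makes cholesterol in the last step of one branch, by 0.90, *Sc5d* by 0.89, *Lss*, the lanosterol synthase, by 0.88 and *Ebp* by 0.87. *Erg28* rose by 0.79 and *Msmo1*, the least moved of the 12, by 0.76, or 1.69-fold. *Fdft1*, *Sqle*, *Cyp51*, *Nsdhl*, *Hsd17b7* and *Dhcr7* passed without each of the 6 arrays, and *Tm7sf2* missed the limit without quetiapine replicates 2 or 3 (up to 0.0557).

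The list of 12 counted 10 to 12 members past the test without single arrays and 8 without the replicate block. In all 12 the difference between quetiapine and control was smallest in replicate 1, with medians of 0.62 in replicate 1, 0.95 in replicate 2 and 1.13 in replicate 3. The mevalonate list showed the same order in 6 of 7 members. The control array of replicate 1 had the highest mean over that list, 10.70 against 10.42 and 10.33, while the quetiapine arrays lay at 11.20, 11.19 and 11.29. The plot of values by array shows this for *Hsd17b7*, *Mvd* and *Fdft1*.

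**Figure D1:**
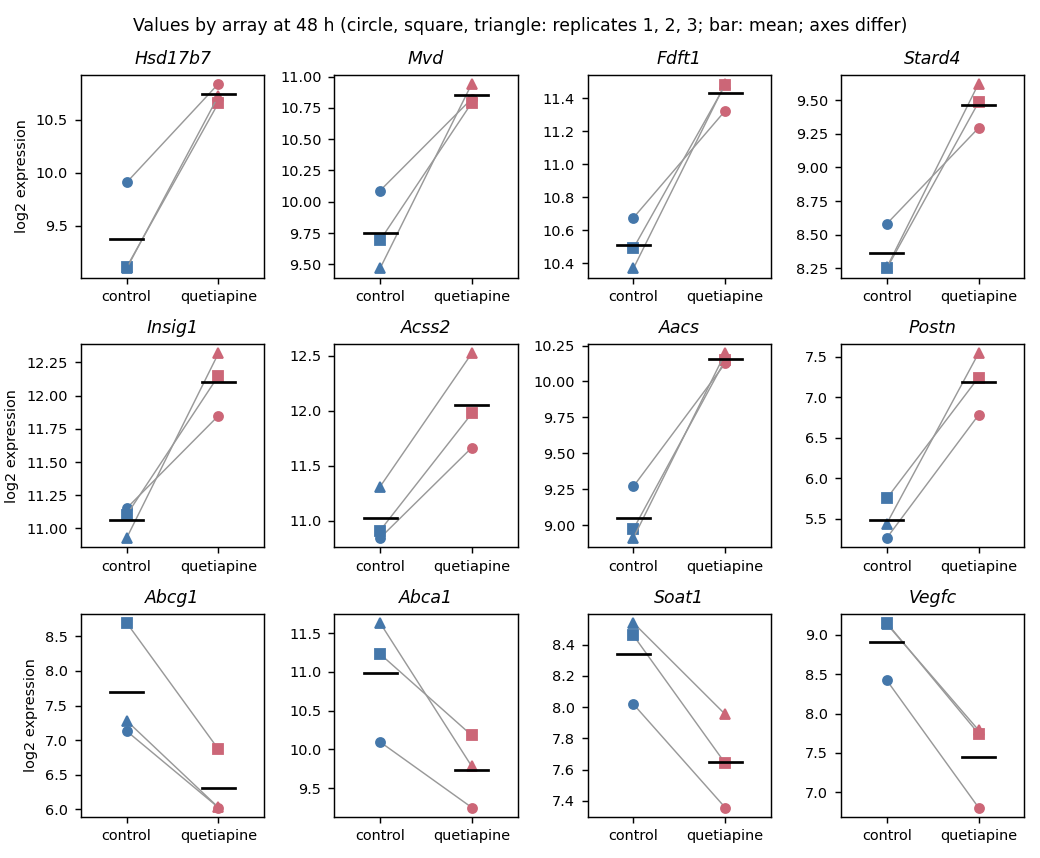
Log2 expression (vertical axes, which differ between panels) of 12 genes in the 3 control and 3 quetiapine cultures at 48 hours, with lines that join the cultures of a replicate and bars at the group means. The 7 lipid synthesis and sensing genes and *Postn* lie higher with quetiapine in every replicate, and *Abcg1*, *Abca1*, *Soat1* and *Vegfc* lie lower in every replicate.

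Among genes that sense and deliver sterol, 3 of 10 passed upward and none downward, with a list median of 0.15. *Stard4*, a carrier that moves cholesterol between membranes, was at 8.58, 8.25 and 8.26 in control and at 9.29, 9.48 and 9.62 with quetiapine, a rise of 1.11 ± 0.13 (adjusted p = 0.00261). *Insig1*, which holds the SREBP complex in the endoplasmic reticulum and is itself an SREBP target, went from 11.15, 11.10 and 10.93 to 11.85, 12.15 and 12.32, a rise of 1.05 ± 0.13 (adjusted p = 0.00317). *Srebf2*, the gene of SREBP2, rose by 0.47 (adjusted p = 0.00775) on the probe set used, while its other probe set was at 0.01 and did not pass. On the probe sets used, all 3 genes passed without each of the 6 arrays. The other members of the machinery did not pass: *Srebf1*, the factor more tied to fatty acids, was at −0.45 (adjusted p = 0.0510), *Scap* at −0.11, *Insig2* at 0.21 and *Mylip*, which marks the LDL receptor for degradation, at −0.51 (adjusted p = 0.0857).

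Some genes of fatty acid synthesis rose. Of 17 measured genes of fatty acid synthesis and acetyl-CoA supply, 9 passed upward and 1 downward, with a median of 0.53. The largest rises were in genes that supply acetyl units. *Aacs*, which activates acetoacetate, went from 9.27, 8.97 and 8.91 to 10.13, 10.15 and 10.20, a rise of 1.11 ± 0.13 (adjusted p = 0.00271). *Acss2*, which makes acetyl-CoA from acetate, went from 10.84, 10.91 and 11.31 to 11.67, 11.98 and 12.52, a rise of 1.03 ± 0.10 (adjusted p = 0.00117). *Acly*, the citrate lyase, rose by 0.60 and *Slc25a1*, which carries citrate out of mitochondria, by 0.67. The desaturase *Scd* rose by 0.61, the elongase *Elovl6* by 0.62, *Acsl3*, which activates long fatty acids, by 0.71, and *Mid1ip1*, a partner of acetyl-CoA carboxylase, by 0.53. *Thrsp*, a lipogenic gene also induced by thyroid hormone, rose by 0.88 on the probe set used for the lists and by 1.12 on another. The 2 core enzymes of fatty acid synthesis were not past the test, with *Fasn* at 0.09 (adjusted p = 0.596) and *Acaca* at 0.06 (adjusted p = 0.594). *Gpam*, the first enzyme of glycerolipid synthesis, fell by 0.34 (adjusted p = 0.0298). *Aacs* and *Acss2* passed without each of the 6 arrays, while the list counted 4 or 5 upward without control replicates 2 or 3 or quetiapine replicates 2 or 3, and 1 without the block.

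Some genes of cholesterol efflux and storage fell. Of 10 measured members of the list of efflux and LXR targets, 5 passed downward and none upward, with a median of −0.50. *Abcg1*, an exporter of cholesterol to lipoproteins, was at 7.13, 8.69 and 7.28 in control and at 6.03, 6.87 and 6.03 with quetiapine, a fall of 1.39 ± 0.18 on the log2 scale, or 2.63-fold (adjusted p = 0.00473). It was lower in every replicate, and the other 2 of its 3 probe sets did not pass, the least moved at −0.01. *Abca1*, which loads cholesterol onto apolipoproteins, went from 10.10, 11.23 and 11.63 to 9.25, 10.18 and 9.78, a fall of 1.25 ± 0.24 (adjusted p = 0.0220), and all 4 of its probe sets passed, between −1.28 and −0.96. *Soat1*, which esterifies cholesterol for storage, went from 8.02, 8.46 and 8.54 to 7.36, 7.64 and 7.95, a fall of 0.69 ± 0.09 (adjusted p = 0.00334). *Apoe*, the main apolipoprotein of the brain, fell by 0.49 (adjusted p = 0.0286), with its other probe set at −0.00285, and *Abcg4* by 0.32 (adjusted p = 0.0292). The LXR genes themselves did not pass, with *Nr1h2* at 0.06 and *Nr1h3* at −0.07. *Abcg1* and *Soat1* passed without each of the 6 arrays. *Abca1* and *Abcg4* passed only without control replicate 1 (adjusted p up to 0.122 and 0.131), *Apoe* missed the limit without replicates 2 or 3 of either group (up to 0.149), and none of the list passed without the block. *Apoe* and *Abca1* are also made by astrocytes, whose markers were lower with quetiapine, as given below, and the part of that in these falls was not tested.

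Other lipid genes moved apart from each other. *Cpt1a*, the gate of fatty acids into mitochondria, fell by 0.89 (adjusted p = 0.0233) and *Plin2*, a coat protein of lipid droplets, by 0.64 (adjusted p = 0.0335), the 2 of 16 members of the fatty acid oxidation list that passed. With quetiapine added to T3, this probe set of *Plin2* was at 0.61, which did not pass (adjusted p = 0.0740), and its other probe set was at 0.01. The difference with and without T3 did not pass for either. Of 13 genes of sphingolipid and galactolipid synthesis, *Fa2h*, which adds the hydroxyl group of myelin galactolipids, rose by 0.73 (adjusted p = 0.0337) and *Cers6*, a ceramide synthase, fell by 0.61 (adjusted p = 0.0406). These 4 calls held without control replicate 1 and were lost without each of the other 5 arrays, with adjusted p up to 0.176. Outside the lists, and named after their values were seen, *Pcyt2* of phosphatidylethanolamine synthesis rose by 0.77, *Papss2*, which makes the sulfate donor, by 0.91, and *Cerk*, the ceramide kinase, fell by 0.91, while *Lpcat1* fell by 0.83.

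**Figure D2:**
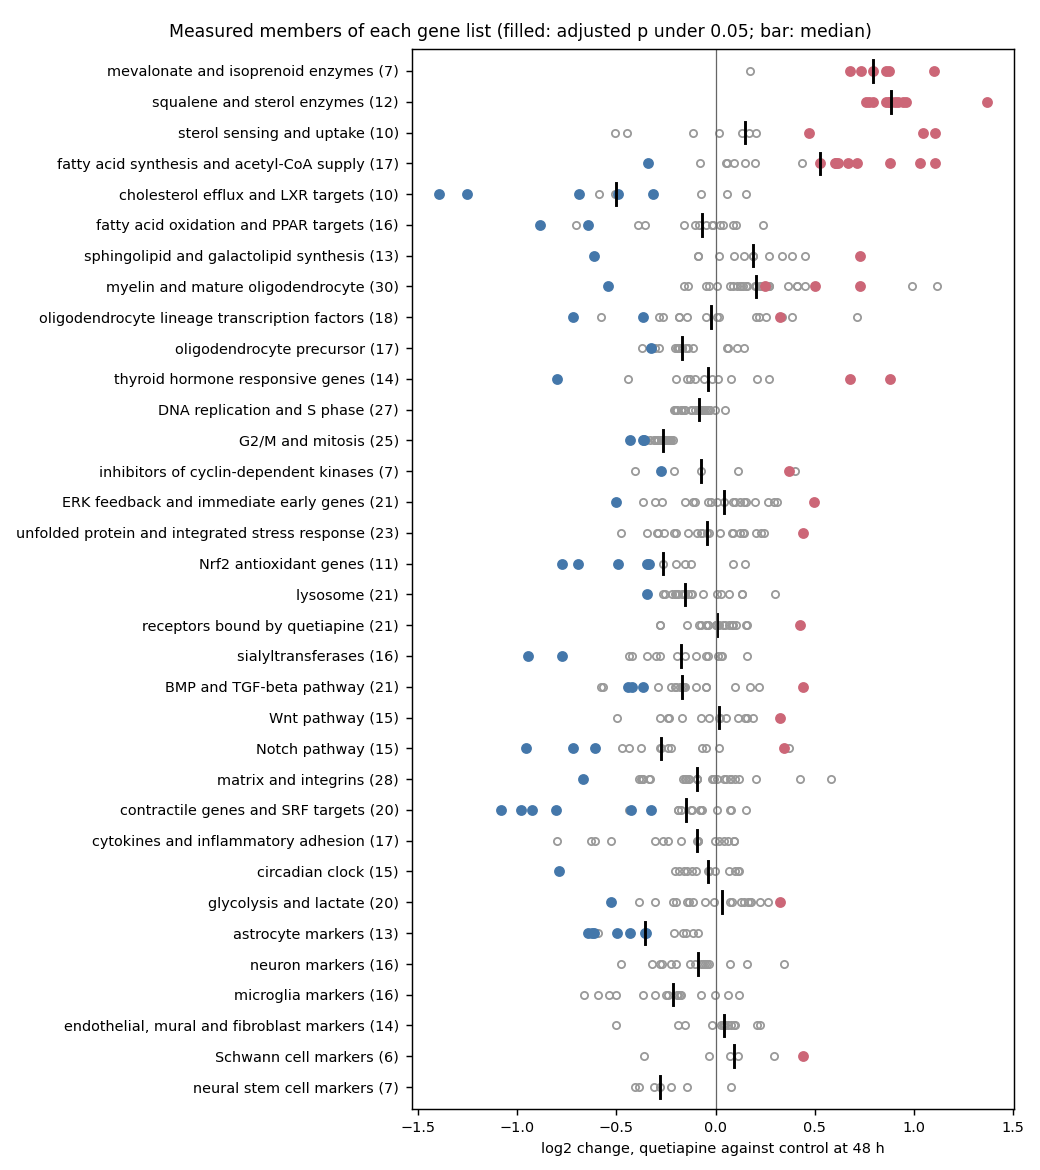
Log2 change with quetiapine against control at 48 hours (horizontal axis) of each measured member of 34 gene lists (rows, with the number measured), with filled points past an adjusted p of 0.05 and a bar at the median. The mevalonate and squalene lists lie apart at 0.79 and 0.88, and no member of the astrocyte or G2/M lists lies above 0.

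Few myelin genes passed the test at 48 hours. Of 30 measured members, 3 passed upward and 1 downward, and the median was 0.20 with 25 members above 0. *Mag*, an adhesion molecule of the inner myelin layer whose call was lost without each of the quetiapine arrays (adjusted p up to 0.127), was at 11.63, 11.82 and 11.90 in control and at 11.99, 12.17 and 12.69 with quetiapine, a rise of 0.50 ± 0.10 (adjusted p = 0.0227). *Fa2h* and *Plekhb1* rose by 0.73 and 0.25, and *Car2*, the carbonic anhydrase of oligodendrocytes, fell by 0.54 (adjusted p = 0.0458). With single arrays left out, *Car2* passed only without quetiapine replicate 2 (adjusted p up to 0.204). *Mbp*, myelin basic protein, was already near the top of the array scale, at 13.92, 13.98 and 14.02 in control and 14.00, 14.12 and 14.28 with quetiapine. Its change of 0.16 did not pass (adjusted p = 0.132, 95% interval 0.04 to 0.28 before adjustment). *Mobp* and *Gpr37*, at 1.12 and 0.99, had larger mean changes than any member that passed, but replicate 3 carried much of them. *Mobp* was at 7.29 with quetiapine in replicate 3, and at 5.16 and 4.96 in replicates 1 and 2 (adjusted p = 0.147). *Gpr37* went from 6.15, 6.06 and 6.94 to 6.65, 6.67 and 8.79 (adjusted p = 0.0694). The count of the list was 8 upward without control replicate 1, at most 1 without each other array, and 0 without the block.

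Genes of the precursor state and of lineage control moved little. Of 17 OPC markers, 4 were above 0 and the median was −0.17, and *Rlbp1* was the member that passed, with a fall of 0.32 (adjusted p = 0.0298). *Pdgfra*, the receptor that keeps OPCs dividing, was at 12.60, 12.54 and 12.70 in control and 12.49, 12.18 and 12.26 with quetiapine (−0.31, adjusted p = 0.107), and *Cspg4*, the gene of NG2, was at −0.29 (adjusted p = 0.0814). Among 18 lineage transcription factors, *Hes5*, a Notch target that holds precursors back, fell by 0.72 (adjusted p = 0.0298), *Id2*, another inhibitor of differentiation, fell by 0.37 (adjusted p = 0.0318), and *Tcf7l2*, which marks newly formed oligodendrocytes, rose by 0.32 (adjusted p = 0.0455) on the probe set used and by 0.69 on its most moved one. *Olig1*, *Olig2* and *Sox10* were at −0.05, 0.01 and 0.22, and *Myrf*, the factor that drives myelin genes, at 0.34 (adjusted p = 0.0847). *Rlbp1*, *Hes5* and *Tcf7l2* passed only without control replicate 1 when single arrays were left out, and *Id2* only without quetiapine replicate 1 (up to 0.179 in all).

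Few cell cycle genes passed the test. All 25 measured genes of G2/M and mitosis, on the probe sets used, were lower with quetiapine in all 3 replicates. Their median was −0.27 and their range −0.43 to −0.21, while 48.5% of all named genes lay above 0. How many of all genes were lower in all 3 replicates was not counted. Of the 25, 3 passed. *Kif23*, a kinesin of cytokinesis, was at −0.43 (adjusted p = 0.0253), with its other probe set at 0.08. *Cks2*, a partner of cyclin-dependent kinases, was at −0.37 (adjusted p = 0.0268), and cyclin B2 (*Ccnb2*) at −0.36 (adjusted p = 0.0384). *Mki67*, the proliferation marker, went from 9.50, 9.38 and 10.08 to 9.17, 9.23 and 9.75 (−0.27, adjusted p = 0.0784). These members move together in dividing cells and are not independent. Of 27 genes of DNA replication, 1 was above 0 and none passed with limma, with a median of −0.08, while 19.2% of all probe sets had an unadjusted p under 0.05. Without control replicate 1, 19 of the 25 G2/M genes passed downward, and without each of the other 5 arrays none did. Among 7 inhibitors of cyclin-dependent kinases, *Cdkn2d* rose by 0.37 and *Cdkn2c* fell by 0.27. When single arrays were left out, *Cdkn2d* passed only without control replicate 1 (adjusted p up to 0.206). *Cdkn2c* was lost without replicates 2 or 3 of either group, and its other probe set was at 0.01.

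Some astrocyte genes fell with quetiapine. Of 13 measured astrocyte markers, on the probe sets used, 7 passed downward, none upward, and none lay above 0, with a median of −0.36. Of all named genes, 2.76% passed downward. *Gja1*, a connexin of gap junctions, went from 11.46, 12.67 and 13.12 to 11.05, 12.10 and 12.22, a fall of 0.62 ± 0.12 (adjusted p = 0.0265). The replicates differed more from each other than the groups did. *Ntsr2*, *S1pr1*, *Acsbg1*, *Slc1a3* (a glutamate transporter), *Glul* (glutamine synthetase) and *Aqp4* fell by 0.65, 0.61, 0.50, 0.43, 0.36 and 0.35. *Gja1* ranged from −0.73 to 0.06 over its 3 probe sets, of which 2 passed, and the other probe set of *S1pr1* was at −0.04. All 3 probe sets of *Glul* passed, 2 of 3 of *Slc1a3* and 1 of 3 of *Aqp4*. *Gfap*, the defining filament protein, was at 12.81, 13.37 and 13.49 in control and 12.76, 13.34 and 13.30 with quetiapine (−0.09, adjusted p = 0.459), and *Aldoc* at −0.12. The mean level of the list was 9.74, 10.45 and 10.69 in control and 9.58, 10.13 and 10.06 with quetiapine, lower in all 3 replicates, so the selected cultures held RNA of astrocyte genes in both groups. The count was 6 without control replicate 1, 2 without quetiapine replicate 1, 1 or 0 without each of the other 4 arrays, and 0 without the block. OPCs express some of these genes too, and whether fewer astrocytes or less RNA per cell lay behind the values cannot be told apart.

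Few markers of other cells passed the test. None of 16 neuron markers, 16 microglia markers, 14 endothelial, mural and fibroblast markers or 7 neural stem cell markers passed in limma. In the neural stem cell list 6 of 7 members lay below 0, with a median of −0.28. *Nes*, the filament protein nestin, was at −0.41 (adjusted p = 0.0593), and at 96 hours 6 of the 7 passed downward, none of them without the block. The mean level of the microglia list was 5.28, 6.99 and 5.58 in control and 5.43, 6.08 and 5.58 with quetiapine, so the control culture of replicate 2 stood highest. Of 6 Schwann cell markers, *Prx* rose by 0.44 (adjusted p = 0.0291). As a measure of RNA quality, the 3′ end of beta-actin read above its 5′ end by 0.58, 0.58 and 0.62 in control and 0.63, 0.61 and 0.65 with quetiapine on the log2 scale, higher with quetiapine in all 3 replicates. The same measure of GAPDH was −0.08, −0.04 and −0.08 in control and −0.03, −0.09 and −0.12 with quetiapine, higher in replicate 1 and lower in replicates 2 and 3. The part of RNA quality in the results was not tested. Arrays of both groups correlated across probe sets with r of 0.984 to 0.997. *Hprt1*, a common reference gene for PCR, was at −0.14 (adjusted p = 0.444).

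Several Notch, contractile and antioxidant genes fell. Over all named genes, 2.76% passed downward and 1.86% upward. Of 15 Notch genes, 3 passed downward and 1 upward. *Jag2*, a Notch ligand, went from 5.91, 5.65 and 5.88 to 4.97, 4.70 and 4.91, a fall of 0.95 ± 0.12 (adjusted p = 0.00334) that passed without each of the 6 arrays. The targets *Hes5* and *Hey2* fell by 0.72 and 0.61, while *Rbpj*, the DNA-binding partner of Notch, rose by 0.35. The other probe set of *Hes5* was at 0.08. *Hey2* was lost without 3 of the 6 arrays (adjusted p up to 0.111) and *Rbpj* without 4 (up to 0.194), and without the block 1 Notch gene passed downward and none upward. Of 20 contractile genes and targets of SRF, 6 passed downward and none upward. The kinase gene *Mylk* was not on this list and rose by 1.06, as given below. *Myl9*, a myosin light chain, went from 8.14, 8.22 and 8.34 to 7.42, 7.55 and 6.96, a fall of 0.92 ± 0.12 (adjusted p = 0.00413). *Tagln*, transgelin, fell by 1.08, *Ccn2*, a secreted growth factor, by 0.98 and *Cnn2*, calponin 2, by 0.80, and *Vcl* and *Tpm4* by 0.43 and 0.33. *Myl9* passed without each of the 6 arrays and the list counted 1 to 6 in these fits, 1 of them without quetiapine replicate 3. Of 11 antioxidant targets of Nrf2, 5 passed downward and none upward. *Hmox1*, the heme oxygenase, went from 8.71, 9.56 and 9.52 to 8.19, 8.64 and 8.64, a fall of 0.77 ± 0.09 (adjusted p = 0.00302) that passed without each of the 6 arrays, and *Nqo1*, a quinone reductase, fell by 0.70. *Gsta4*, *Srxn1* and *Osgin1* fell by 0.49, 0.34 and 0.33, and the list counted 1 without replicate 2 or 3 of either group. Without the block none of the contractile or Nrf2 genes passed.

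Other signalling lists had few members past the test. Of 21 genes of the BMP and TGF-beta pathways 1 passed upward, the decoy receptor *Bambi* (0.44), and 3 downward, among them *Smad9* (−0.44) and *Id3* (−0.42). Of 21 genes of ERK feedback and immediate early response, the phosphatase *Dusp6* rose by 0.50 (adjusted p = 0.0228) with all 3 of its probe sets past the test, and *Etv1* fell by 0.50. Of 23 genes of the unfolded protein and integrated stress responses, *Asns*, asparagine synthetase, rose by 0.44 (adjusted p = 0.00900). Of 21 lysosome genes, *Ctsb*, cathepsin B, fell by 0.35. Of 20 genes of glycolysis, *Ldha*, lactate dehydrogenase, rose by 0.32 and *Pfkfb3*, an activator of glycolysis, fell by 0.53, and of 15 Wnt genes *Tcf7l2* passed. *Bhlhe41*, a repressor of the clock, fell by 0.79 (adjusted p = 0.0296) among 15 clock genes, and *Tnc*, the matrix protein tenascin C, by 0.67 among 28 matrix and integrin genes. None of 17 cytokine and adhesion genes passed in limma. *Asns* missed the limit only without quetiapine replicate 3 (adjusted p = 0.0558) and *Pfkfb3* without control replicate 3 and quetiapine replicates 2 or 3 (up to 0.0987), and each of the other calls was lost without at least 4 of the 6 arrays.

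The receptors that quetiapine binds were mostly near the low end of the array scale. Of 21 measured, *Chrm3*, a muscarinic receptor, passed, from 5.68, 5.47 and 5.42 to 5.95, 5.97 and 5.93, a rise of 0.43 ± 0.08 (adjusted p = 0.0193). It missed the limit without replicates 2 or 3 of either group (up to 0.111). *Drd2*, the dopamine receptor the drug is best known for, was at 5.56, 5.08 and 4.92 in control and 5.33, 5.04 and 4.74 with quetiapine, *Htr2a* was at 0.00 and *Hrh1*, the histamine receptor, at −0.28 (adjusted p = 0.156). The median of the list was 0.01.

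Sialyltransferases, which add sialic acid to glycans, had 2 of 16 members past the test, both downward. *St6gal1* had the lowest adjusted p of all probe sets. It was at 9.49, 9.41 and 9.38 in control and at 8.53, 8.39 and 8.51 with quetiapine, a fall of 0.95 ± 0.06, or 1.93-fold (adjusted p = 0.000648). The 3 values of each group lay close together and did not overlap with the other group. The other probe set of *St6gal1* was at −0.24 and did not pass. *St3gal6* fell by 0.78 (adjusted p = 0.00271), and both passed without each of the 6 arrays.

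Of the 15 genes with the largest rises, 5 were outside lipid synthesis and sensing. *Postn*, the secreted matrix protein periostin, went from 5.26, 5.75 and 5.44 to 6.78, 7.24 and 7.54, a rise of 1.71 ± 0.20, or 3.26-fold (adjusted p = 0.00271). *Tmtc1*, a protein mannosyltransferase of the endoplasmic reticulum, rose by 1.51 ± 0.17 from between 5.23 and 6.15 in control, with the highest quetiapine array at 8.16. *Mcam*, an adhesion molecule, and *Dock9*, an activator of Cdc42, both rose by 1.17, and *Mylk*, the myosin light chain kinase, by 1.06. These 5 passed without each of the 6 arrays. Outside the rule for named genes, and named after their values were seen, *Pdgfa*, the ligand of the OPC growth receptor, rose by 0.86, *Lpar1*, a lysophosphatidic acid receptor of oligodendrocytes, by 0.89 and *Casr*, the calcium-sensing receptor, by 1.00.

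The largest falls were in genes of varied function. *Vegfc*, a growth factor of lymphatic vessels, went from 8.42, 9.15 and 9.14 to 6.80, 7.74 and 7.79, a fall of 1.46 ± 0.13, or 2.75-fold (adjusted p = 0.00115). *Mreg*, melanoregulin, which acts in the transport of pigment and lysosome-related organelles, went from 10.63, 10.59 and 9.54 to 9.48, 9.32 and 8.26, a fall of 1.23 ± 0.13 (adjusted p = 0.00198). *Mapt*, the microtubule protein tau, went from 11.02, 10.94 and 10.67 to 10.07, 9.96 and 9.58, a fall of 1.01 ± 0.08 (adjusted p = 0.000955), and all 3 of its probe sets passed. In each of these the difference was close to equal in the 3 replicates. *Sntg2*, a syntrophin, fell by 1.24, *Dct*, a melanin enzyme, by 1.18, *Mical1*, which oxidizes actin, by 1.01 and *Ctnnal1*, a relative of alpha-catenin, by 0.99. *Fam107a*, expressed in radial glia and astrocytes, fell by 1.31 (adjusted p = 0.0358). *Vegfc*, *Mreg*, *Mapt*, *Sntg2*, *Mical1* and *Ctnnal1* passed without each of the 6 arrays, *Dct* missed the limit without replicate 2 of either group (up to 0.0709), and *Fam107a* without replicates 2 or 3 of either group (up to 0.161).

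The combination against T3 also differs by quetiapine alone, and its changes come from arrays that the changes against control do not use. The tests are not separate, since all 12 arrays at 48 hours shared 1 fit with its replicate block and residual spread. In that comparison 47 probe sets were called higher, 0.151%, and 86 lower, 0.277%. Of the 144 probe sets called higher without T3, all 144 were also higher in the combination than in T3, while 53.5% of all probe sets lay above 0 in that comparison, and 70 passed the test. Of the 158 called lower, 155 were also lower (98.1%, while 46.5% of all probe sets lay below 0), and 56 passed. Called in both were 45 of the 144 (31.2%, and 95.7% of the 47) and 45 of the 158 (28.5%, and 52.3% of the 86). The median change of the 144 was 0.75 without T3 and 0.53 with it, and of the 158 it was −0.71 and −0.58. Probe sets chosen for their change in one comparison tend to show less of it in another. Without the replicate block, 0 probe sets were called higher with quetiapine added to T3 and 6 lower, with 5.22% of probe sets at an unadjusted p under 0.05.

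Sterol genes were also higher with quetiapine in T3 cultures. Added to T3, quetiapine raised 11 of 12 squalene and sterol enzymes and 6 of 7 mevalonate enzymes past the test, against 0.457% of all named genes, with medians of 0.68 and 0.65. Without the replicate block none of either list passed, and with any replicate left out 0 probe sets were called higher in this comparison. *Hsd17b7* was at 10.04, 9.75 and 9.58 in T3 and at 10.84, 10.67 and 11.16 in the combination, a rise of 1.10 (adjusted p = 0.0156), and *Vegfc* went from 7.81, 8.48 and 8.41 to 6.51, 7.44 and 6.77, a fall of 1.33 (adjusted p = 0.00530). In the test of the difference itself, limma called 0 of 31042 probe sets in each direction, and 1075 (3.46%) had an unadjusted p under 0.05. With 3 replicates this does not show that the effects were equal. For *Hsd17b7* the difference was −0.27, with a 95% interval of −0.80 to 0.26 before adjustment.

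**Figure D3:**
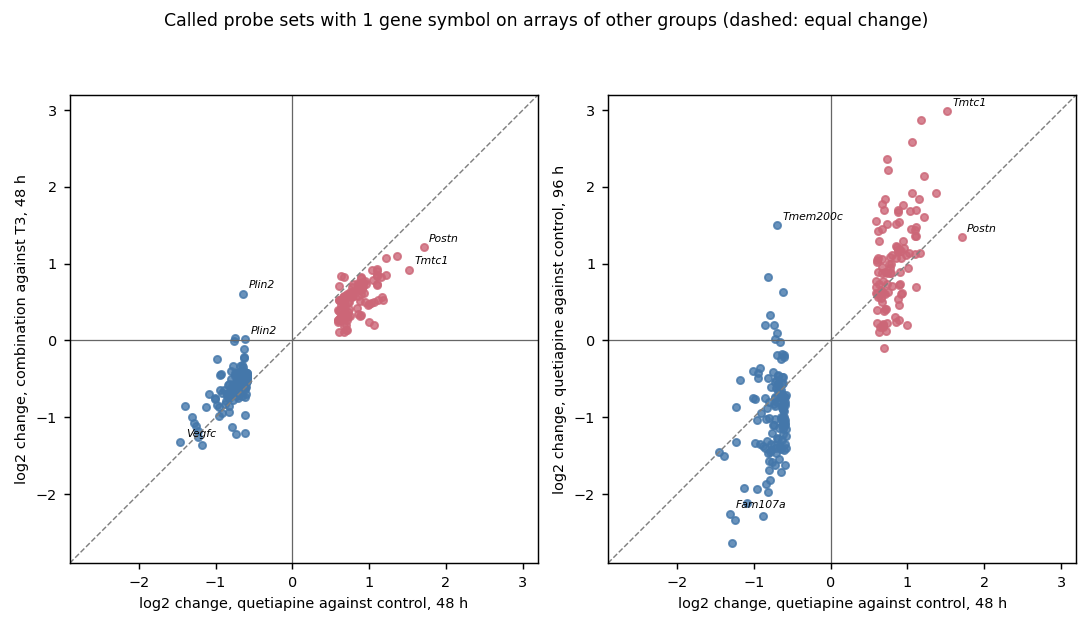
Log2 change of the 231 called probe sets with 1 gene symbol, with quetiapine against control at 48 hours on the horizontal axes, against the combination over T3 at 48 hours (left) and quetiapine over control at 96 hours (right), on arrays that the horizontal values do not use. All probe sets called higher lie above 0 on the left and nearly all on the right, and those called lower lie mostly below 0 in both panels, with a probe set of *Plin2* at 0.61 on the left and *Tmem200c* on the right as the farthest on the other side.

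Quetiapine and T3 were also compared directly. Against T3, quetiapine gave 199 probe sets called higher, 0.641%, and 672 lower, 2.16%, and without the replicate block 70, 0.226%, and 240, 0.773%. Sterol enzymes were higher with quetiapine than with T3 in 11 of 12 and 6 of 7 members (5.14% of all named genes passed upward), with medians of 0.65 and 0.57. *Cyp51* was at 12.06, 12.24 and 12.37 with T3, above the control and below the quetiapine arrays of the same replicate. *Greb1l*, a co-regulator of retinoic acid signalling, was highest with quetiapine, at 8.48, 8.37 and 8.06 against 6.86, 6.42 and 6.48 with T3 and 7.77, 7.45 and 6.70 in control, 1.72 above T3 (adjusted p = 8.02e-05) and 1.00 above control. *Asxl3*, *Nav2* and *Cdkn1c*, which codes for the cell cycle inhibitor p57, were 1.10, 1.12 and 1.06 above T3.

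Some genes known to respond to thyroid hormone were far lower with quetiapine than with T3. Of 14 genes known to respond to thyroid hormone, 8 were lower than with T3 past the test and none higher, with a median of −1.24 (6.91% of all named genes passed downward). *Nt5e*, an ectonucleotidase, was at 4.27, 4.92 and 4.10 in control, 4.46, 4.18 and 4.27 with quetiapine and 8.38, 8.05 and 8.72 with T3. *Crym*, a protein that binds T3 in the cytosol, *Rpe65*, a retinoid isomerase, and *Slc12a7*, a potassium chloride transporter, were 3.77, 3.65 and 3.59 lower with quetiapine than with T3 and near the control level. *Klf9*, *Hr* and *Dbp*, known targets of the hormone, were at −0.44, 0.27 and −0.14 with quetiapine against control and did not pass (adjusted p = 0.0641, 0.0765 and 0.370). Some members moved against control. *Thrsp* rose by 0.88 and *Thrb*, the receptor TRβ, by 0.68 (adjusted p = 0.0172 and 0.0118), while *Slco1c1*, a thyroid hormone transporter, fell by 0.80 (adjusted p = 0.0390). Against T3, *Thrb* was at −0.14 and did not pass (adjusted p = 0.495, limma). With single arrays left out, *Slco1c1* passed only without control replicate 1 (up to 0.188). *Thrsp* was lost without control replicates 2 or 3 or quetiapine replicate 3 (up to 0.0792), and *Thrb* without quetiapine replicates 2 or 3 (up to 0.0720). None of the list passed against control without the block. *Dct* and *St6gal1* lay in opposite directions from control under the compounds. *St6gal1*, on the probe set that passed, was at 10.39, 10.22 and 10.21 with T3 and at 9.82, 9.88 and 9.76 in the combination, between the single compounds.

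**Figure D4:**
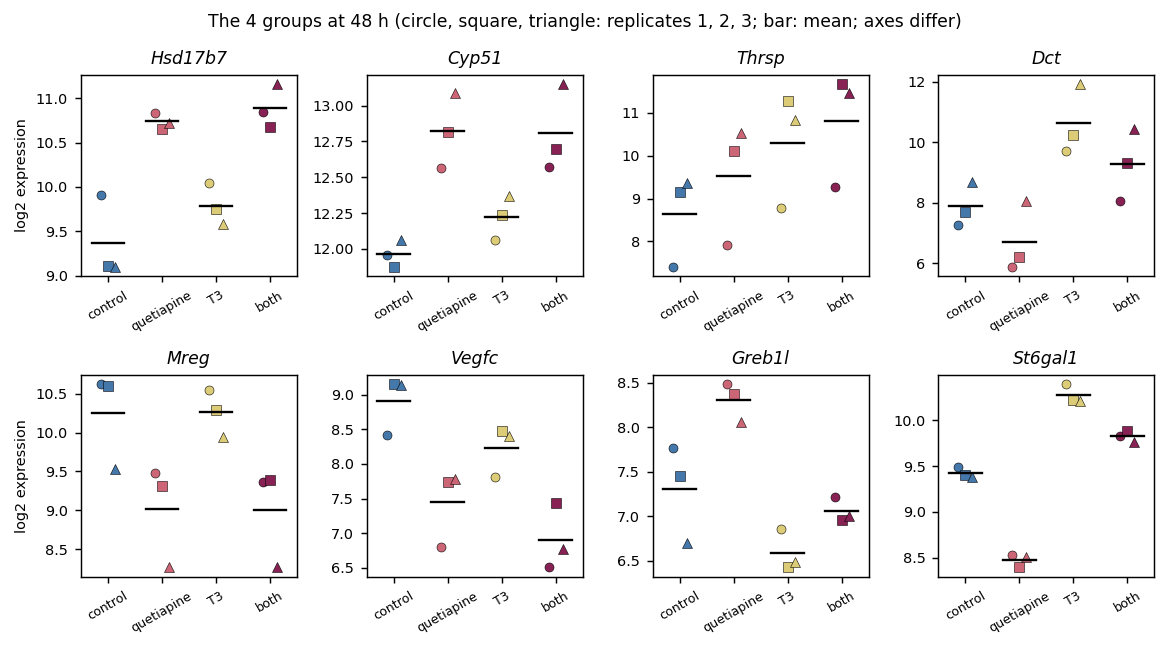
Log2 expression (vertical axes, which differ between panels) of 8 genes in the 3 cultures of each of the 4 groups at 48 hours, with bars at the means. *Hsd17b7* and *Cyp51* are highest in the groups with quetiapine, *Mreg* and *Vegfc* are lowest in them, and *Dct* and *St6gal1* are higher with T3 than in control and lower with quetiapine.

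At 96 hours more probe sets were called, and most myelin genes passed the test. Quetiapine against control at 96 hours gave 922 probe sets called higher, 2.97%, and 1083 lower, 3.49%. Without the block these were 664 and 356, and without replicate 3 they were 789 and 635. Of the 144 that were called higher at the earlier time, 142 were higher at 96 hours (98.6%, while 50.6% of all lay above 0) and 99 were called (68.8% of the 144, and 10.7% of the 922). Of the 158 called lower, 146 were lower at 96 hours (92.4%, while 49.4% of all lay below 0), 112 were called (70.9%, and 10.3% of the 1083), and 2 passed the test the other way. The effects were compared in 1 fit over all 24 arrays, in which 472 probe sets were higher at 96 than at 48 hours, 1.52%, and 69 lower, 0.222%. Of the 302 probe sets called at 48 hours, 33 differed between the times past the test, 22 with a larger and 11 with a smaller change at 96 hours. Without the replicate block the differences came to 30 higher and 0 lower, with 6.24% of probe sets at an unadjusted p under 0.05.

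Sterol genes passed the test at both times, and most myelin genes only at 96 hours. Of the 12 squalene and sterol enzymes all passed at both times, with medians of 0.88 and 1.18, and none differed between the times past the test in limma (2.39% of all named genes had a higher change at 96 hours and 0.528% a lower one). *Hsd17b7* rose by 1.37 and 1.92, with a difference of 0.55 (adjusted p = 0.239), and *Ebp* by 0.87 and 1.70, with a difference of 0.83 (adjusted p = 0.139). With 3 replicates this does not show that the effects were equal at both times. Of 30 myelin genes, 3 rose past the test at 48 hours and 27 at 96 hours, when 8.96% of all named genes passed upward and 12.5% downward, with medians of 0.20 and 1.04. In the test of the difference, 12 had a higher change at 96 than at 48 hours. Not all of these had risen at 48 hours, when *Car2* was at −0.54 and *Mal* at −0.16. Without the replicate block 16 of the 30 passed at 96 hours and none in the test of the difference. *Mag* rose by 0.50 and 1.45, a difference of 0.95 ± 0.13 (adjusted p = 0.000580). *Gpr37*, an orphan receptor of oligodendrocytes, was at 6.65, 6.67 and 8.79 with quetiapine at 48 hours and at 11.08, 11.42 and 11.83 at 96 hours, while its control went from 6.15, 6.06 and 6.94 to 8.05, 8.43 and 8.55. *Mbp* rose by 0.35 at 96 hours (adjusted p = 0.00539), and its difference from 48 hours did not pass (adjusted p = 0.263). Of the astrocyte markers 9 of 13 passed downward at 96 hours, with a median of −0.64, and *Ntsr2* fell further past the test of the difference. The G2/M genes had a median of −0.62 at 96 hours and none passed there in limma, where 9318 of all probe sets had an unadjusted p under 0.05.

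**Figure D5:**
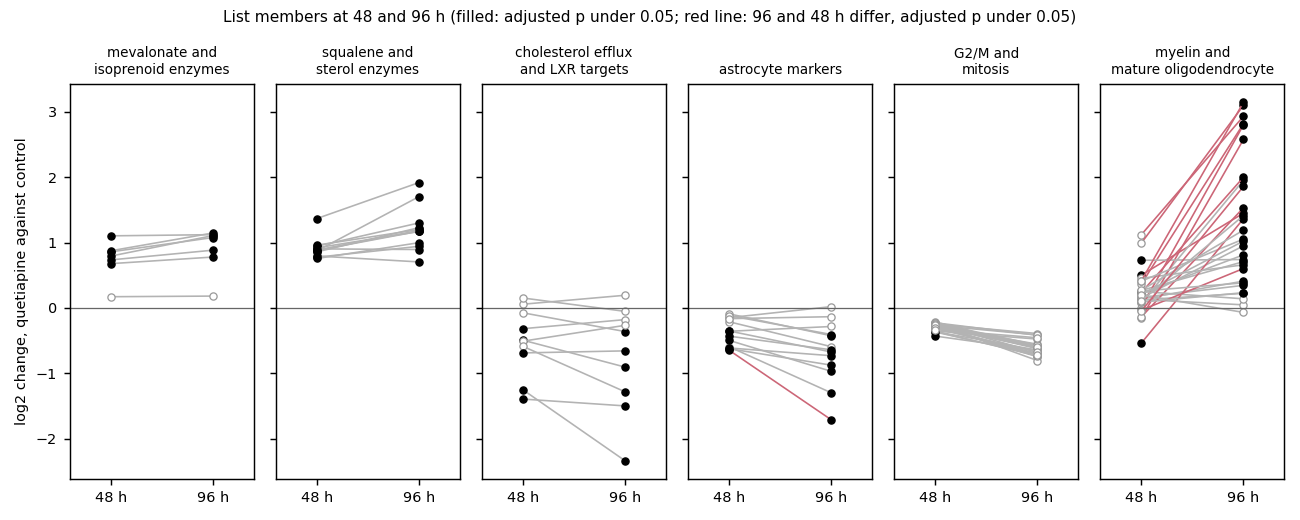
Log2 change with quetiapine against control (vertical axis, shared) at 48 and 96 hours for the measured members of 6 gene lists, with filled points past an adjusted p of 0.05 and red lines where the times differ past the test. The squalene and sterol enzymes sit at a median of 0.88 at 48 hours and 1.18 at 96 hours, while the myelin genes go from 0.20 to 1.04 with 12 red lines.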

How the data were processed

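Rat OPC cultures were measured on 24 1-colour Affymetrix arrays, 3 for each of 8 conditions. The values are the log2 expression the authors deposited, made with RMA, which subtracts background, sets arrays to 1 distribution and summarizes each probe set. RMA and limma are named in the submitters' processing notes without versions, and no genome build is named in them. After 57 control probe sets were left out, 31042 were tested. Of these, 20826 had 1 gene symbol in the platform annotation, for 14217 genes, 436 had several and 9780 none.

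The 12 arrays at 48 hours entered limma (version 3.58.1, R 4.3.3), with 4 group means and the replicate number as a fixed block. The same was done at 96 hours, and all 24 arrays with replicate within time were used for differences between times. The deposited design states that each biological replicate supplied every condition. As a check, deviations from group means correlated at 0.430 to 0.777 at 48 hours in the 18 array pairs that shared a number and at −0.681 to −0.00478 in the 36 other pairs. Deviations cancel out within each group by construction, so negative values in the other pairs follow from positive ones in pairs that share a number. Adjustment of p-values was over all probe sets, and intervals are at 95%. The fit was tested on simulated data.

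A gene was read through its probe set with 1 symbol and the highest mean over all arrays. The 34 lists held 616 members, of which 559 were measured. The members of this comparison and the lists were chosen with earlier results of these data known. Named genes were those the study names, the 15 largest rises and falls among called genes, up to 6 members past the test per list, or the 2 most changed, and the 5 largest each way in the other comparisons. Further list members, such as *Gpr37*, *Mobp*, *Pdgfra* and *Drd2*, were named after their values were seen. The alternatives were other blocks, scalings, filters and fits without single arrays or replicates. The number of arrays limits the precision. The other 57 list members, promoter motifs, raw signals and the day 0 cultures were not analysed here.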

Additional observations from a re-analysis of the deposited data

Results flagged for a closer look

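In 22 of the named genes the effect of quetiapine at 96 hours differed from that at 48 hours in the test of the difference itself, from limma over all 24 arrays with replicate within time as a block. None of them passed without the block, where the lowest adjusted p was 0.124. In 12 the difference was above 0 and in 19 the change was larger in size at 96 hours. The differences of genes of myelinating cells were 2.80 for *Ermn*, 2.74 for *Mal*, 2.83 for *Cdc42ep2*, 2.73 for *Ppp1r14a*, 2.64 for *Plekhh1*, 0.95 for *Mag* and 1.91 for *Car2*, on the log2 scale and as 96 minus 48 hours. Other genes with a difference above 0 were *Mcam* at 1.70, *Tmtc1* at 1.47, *Eva1c* at 1.25, *Bhlhe41* at 1.12 and *St6gal1* at 0.46. A difference above 0 is not always a larger rise. At 48 hours *Mcam* and *Tmtc1* rose, by 1.17 and 1.51, while *Eva1c*, *Bhlhe41*, *St6gal1* and *Car2* fell, by 0.62, 0.79, 0.95 and 0.54. Differences below 0 were found for *Ogn* at −1.83, *Scg2* at −1.51, *Ifitm3* at −1.48, *Chchd10* at −1.40, *Mx2* at −1.32, *Ntsr2* at −1.07, *Greb1l* at −0.80, *Hmox1* at −0.66, *Gsta4* at −0.61 and *Dbp* at −0.47. Several of these genes were named because their difference was among the largest, so they are not independent of this test.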

How the results depend on the processing

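For quetiapine against control at 48 hours, the 144 higher and 158 lower calls became 24 and 9 with no replicate block, 94 and 56 with the replicate as a random block, and 88 and 49 with the 6 arrays of both groups alone. Centring arrays on their medians gave 162 and 142, and quantile normalization again gave 154 and 150. In all of these fits the larger count turned from lower to higher. The other scalings and filters kept each count within 1.5 times. All 302 called probe sets kept their direction under every setting, counted over 278 where a filter on dim probe sets removed the rest. Single arrays left out gave 75 to 240 higher and 49 to 353 lower, and whole replicates 1 to 150 and 6 to 161, with 1 and 6 without replicate 2. Without the block, quetiapine against T3 gave 70 higher and 240 lower, quetiapine added to T3 gave 0 and 6, the 96 hour comparison gave 356 lower, and the difference between times gave 30 and 0. Leaving out replicates gave 89 to 249 and 391 to 723 against T3, 0 and 0 to 10 for quetiapine added to T3, 677 to 1001 and 635 to 1247 at 96 hours, and 17 to 511 and 0 to 112 between times. With single arrays left out, genes near no change crossed 0. *Slc12a7* ranged from −0.35 to 0.22, *Ermn* from −0.20 to 0.19, *Rpe65* from −0.19 to 0.14, *Nt5e* from −0.47 to 0.26, *Cdc42ep2* from −0.0821 to 0.54 and *Ppp1r14a* from −0.0765 to 0.72. The causes were not tested. With 3 arrays a group, small changes and those of dim probe sets are poorly resolved. Promoter motifs were not analysed here.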

Other observations

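Other genes called at 48 hours were chosen for mention after their values were seen. *Dpp7*, a lysosomal peptidase, was at 11.11, 11.54 and 11.51 in control and at 10.14, 10.60 and 10.84 with quetiapine, a fall of 0.86 (adjusted p = 0.00117, limma), and *Grn*, which codes for progranulin, fell by 0.70 (adjusted p = 0.0015, limma). At 96 hours both were near control, at 0.21 (adjusted p = 0.179, limma) and 0.09 (adjusted p = 0.748, limma). *Timp1*, an inhibitor of matrix proteases, and *Pdpn*, podoplanin, fell by 0.80 and 0.79 and were at −1.58 and −1.45 at 96 hours, differences that did not pass (adjusted p = 0.0900 and 0.140, limma). *Mgst1*, a glutathione transferase, was at −0.84 and −1.87, and its difference passed (adjusted p = 0.0463, limma). *Rras2*, a small GTPase of the Ras family, rose on both of its probe sets, by 1.02 and 0.99, and was at 1.14 and 1.11 at 96 hours. *Cdh11*, a cadherin, rose by 0.72 and also passed without the replicate block (adjusted p = 0.0383, limma).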
